A study of Mus musculus with 2 samples.

Results

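Ribosome biogenesis and nucleolar genes were followed across the CD45+ leukocytes of 2 mouse melanoma tumours. The set held 43 genes chosen by function, and 38 of them were among the 12584 genes of the deposited count matrix. Rrp1b, Rrp12, Rrp15, Pes1 and Mrto4 were not analysed here. Of the 38, 37 make or organise ribosome precursors and the other is Myc, their known regulator. NTT denotes the targeted therapy-naive YUMM3.3 line, which carries an activating Braf mutation and lacks Cdkn2a. RTT denotes its derivative that became resistant to targeted therapy and was kept in culture with the BRAF inhibitor dabrafenib. Both lines were injected into C57BL/6 mice, and per the series record the tumours were taken 12 days after injection, although the methods of the study give a different day for experiments of this kind. Live CD45+ cells were sorted and profiled by droplet-based single-cell RNA sequencing, which tags each captured 3′ end with a unique molecular identifier (UMI).

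NTT was represented by 2975 cells with 19634099 UMIs, and RTT by 4840 cells with 44712071 UMIs. The median cell had 5398 UMIs in NTT and 8336 in RTT. Ptprc, which encodes CD45, was found in 95.8% of NTT and 92.6% of RTT cells, and 7 barcode sequences occurred in both libraries. With 1 tumour and 1 library per group, the effects of the line, the mouse, the sort and the library cannot be told apart, no test was run, and every interval covers counting error only. The genes were gathered with results of this comparison known, so that values between the libraries are descriptions. Levels are CPM, the UMIs of a gene per 1000000 UMIs of the same cells. As 1 tag is read per molecule, they are not scaled by gene length.

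Ribosomes are built in the nucleolus. RNA polymerase I makes a long precursor RNA there, small nucleolar RNA-protein particles (snoRNPs) guide its methylation and pseudouridylation, and large assemblies cut and fold it into the small (40S) and large (60S) subunits. Myc is a transcription factor that binds E-box elements and is known to raise the output of this pathway in growing cells, activated lymphocytes among them.

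The first question was how the level of these genes differed between the libraries. Over all cells the 38 genes together stood at 2527 CPM in NTT (49606 UMIs) and at 4670 CPM in RTT (208827 UMIs). The log2 ratio of RTT over NTT was 0.89 for the sum (95% interval 0.87 to 0.90), which is 1.85-fold. The median of the 38 single genes was 0.92, against 0.09 over all genes with at least 200 UMIs. Of the 38 genes, 37 were higher in RTT, 36 with an interval above 0, and 13 were 2-fold or more higher (all genes: 11.0%). None of the 38 was 2-fold or more lower (all genes: 16.2%). Polr1a was the gene below 0. No share over all genes is given for the counts of higher genes or of intervals above 0, here and in the classes below. With this many UMIs a small difference can clear an interval that covers counting error only, so these counts describe the set alone.

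The libraries held different mixtures of cells, with most NTT cells under monocyte names and most RTT cells under macrophage names, so the same ratios were taken within cell classes. In monocytes (1615 NTT and 199 RTT cells) the sum of the 38 genes was 1693 CPM in NTT and 2997 CPM in RTT, and the median log2 ratio was 0.84. In monocytes 33 genes were higher in RTT, 28 with an interval above 0, and 11 were 2-fold or more higher (all genes with any UMI: 9.56%). Among the 19 with at least 200 UMIs in monocytes, 3 were past 2-fold (2.97% of such genes). In macrophages (582 and 4009 cells) the sum was 3130 CPM in NTT and 4690 CPM in RTT, and the median was 0.50. Here 36 genes were higher, 33 with an interval above 0, and 3 were 2-fold or more higher (6.49% of genes with any UMI). In dendritic cells (492 and 526 cells) the sum was 2605 CPM in NTT and 4317 CPM in RTT, the median was 0.88, and all 38 genes were higher, 33 with an interval above 0. Of these, 14 were 2-fold or more higher (9.76% of genes with any UMI), and among the 21 with at least 200 UMIs there were 6 (4.83% of such genes). The median over all genes with at least 200 UMIs was -0.05 in monocytes, 0.06 in macrophages and 0.06 in dendritic cells. The classes also differed in identity markers. In that order, 6 macrophage markers summed to 1.75-fold, 1.48-fold and 2.15-fold in RTT over NTT, with all 6 higher in each class. The sums of 4 monocyte markers were 0.50-fold, 0.38-fold and 0.19-fold, with 1 of the 4 higher in macrophages and 1 in dendritic cells. The part of these markers in the class ratios was not tested. With mean weights over the 16 named populations, 30.2% of the difference of 2144 CPM over all cells moved with the shares of the populations and 69.8% with the levels inside them. Only 8 of the 16 populations had at least 50 cells in both libraries. Levels inside the others, TAM_C1q among them, rest on fewer cells in at least 1 library, which limits this split.

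**Figure D1:**
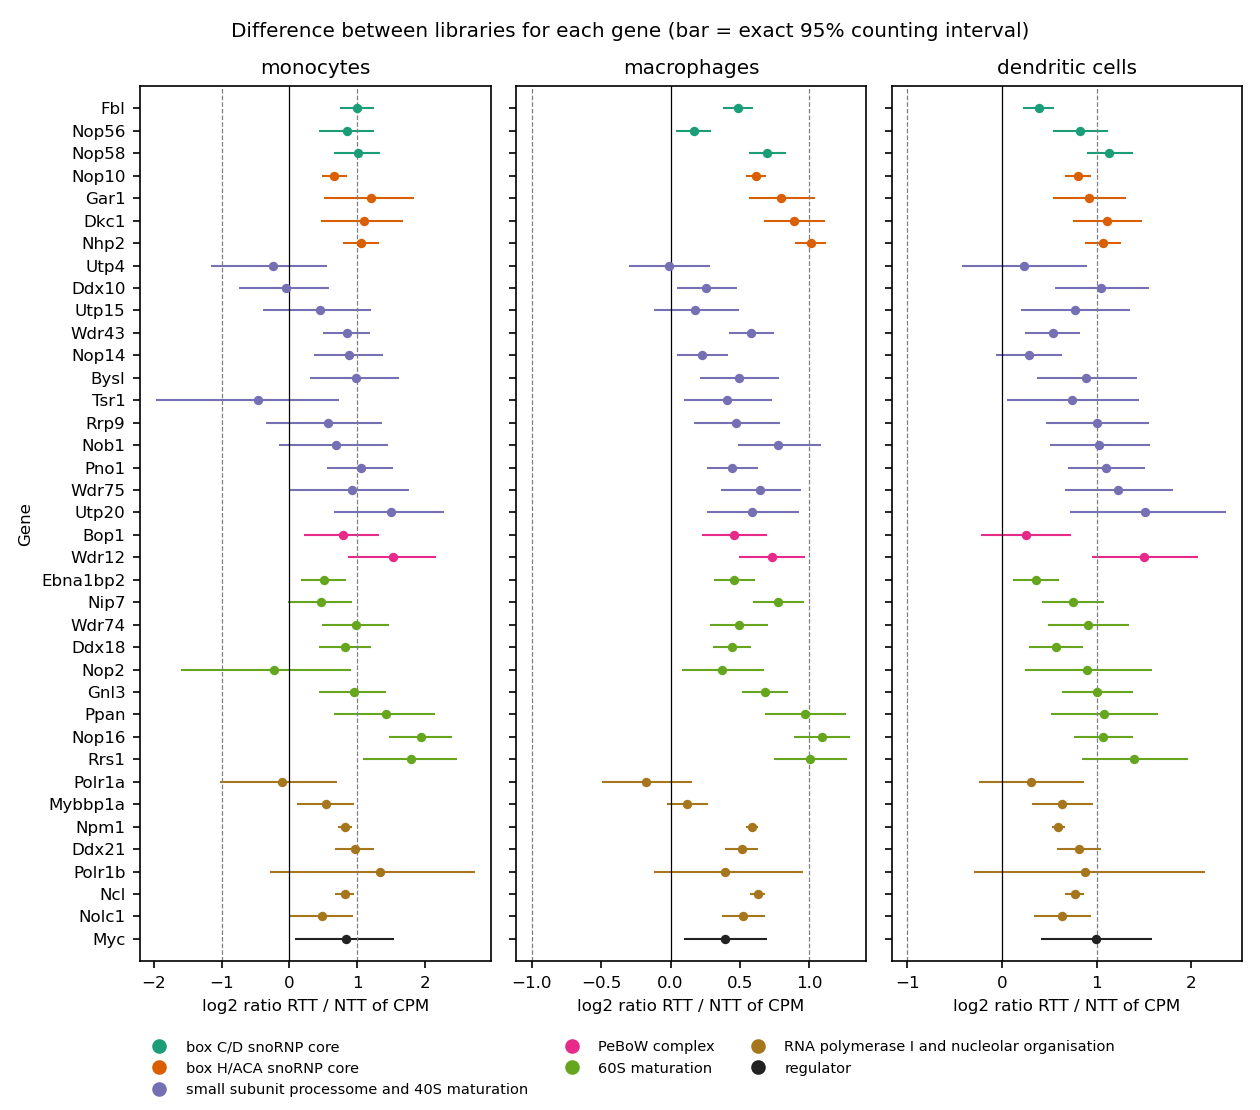
Log2 ratio of RTT over NTT (x axis, from CPM) for each of the 38 genes (y axis, coloured by role) in monocytes, macrophages and dendritic cells, with bars for the exact 95% counting interval and dashed lines at 2-fold. The points lie to the right of 0 for 33, 36 and 38 genes, and the scale of the x axis differs between panels.

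The box C/D snoRNPs carry the methylation machinery. Fbl, the methyltransferase fibrillarin, stood at 113 CPM in NTT and 185 CPM in RTT over all cells, a log2 ratio of 0.71 (0.65 to 0.78). Its scaffold partner Nop58 stood at 68.0 CPM in NTT and 138 CPM in RTT (1.03, 0.94 to 1.11), and Nop56, the other scaffold protein, at 61.1 and 108 CPM (0.83, 0.74 to 0.92). The order of the 3 genes changed with the cells. In macrophages Nop58 had 0.69 (0.56 to 0.83), Fbl 0.48 (0.38 to 0.59) and Nop56 0.17 (0.04 to 0.29), and these intervals do not overlap except those of Nop58 and Fbl. In dendritic cells the lowest was Fbl, with 0.39 (0.23 to 0.55), and in monocytes all 3 lay between 0.85 and 1.01.

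The box H/ACA snoRNPs convert uridine to pseudouridine, and all 4 core proteins were measured. Their median log2 ratio was 1.15 over all cells, 1.08 in monocytes, 0.84 in macrophages and 0.99 in dendritic cells. Among the groups of more than 2 genes, these were the highest medians in each of the 4. Nhp2, an RNA-binding subunit, was at 94.2 CPM in NTT and 239 CPM in RTT over all cells (log2 ratio 1.34, 1.27 to 1.41). Its ratio was 1.06 in monocytes, 1.01 in macrophages and 1.07 in dendritic cells. Dkc1, the pseudouridine synthase dyskerin, was at 26.2 and 58.8 CPM over all cells (1.17, 1.03 to 1.31). Gar1, which binds dyskerin, was at 21.5 and 47.3 CPM (1.14, 0.98 to 1.29). Nop10, the smallest subunit, was far more abundant, at 217 and 417 CPM, with a ratio of 0.94 (0.89 to 0.99).

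The small subunit processome cuts the precursor towards the 40S subunit, and 12 of its 13 listed genes were measured. Their median ratio was 0.84 over all cells, 0.77 in monocytes, 0.46 in macrophages and 0.95 in dendritic cells. Utp20, a large scaffold protein, had the highest ratio of this group over all cells, with 9.01 CPM in NTT and 21.0 CPM in RTT (1.22, 0.98 to 1.46). Pno1 and Nob1 act together on the last 40S precursor, where Nob1 is the nuclease that forms the 3′ end of the mature RNA. Pno1 had 28.7 and 60.7 CPM (1.08, 0.95 to 1.22) and Nob1 14.6 and 29.3 CPM (1.01, 0.82 to 1.20). Bysl, a 40S maturation factor, had 15.4 and 26.9 CPM (0.80, 0.62 to 0.99). Utp4, an early processome subunit, was near equal in the libraries, with 17.6 CPM in NTT and 18.8 CPM in RTT (0.10, -0.09 to 0.28), and its interval included 0 in each of the 8 populations compared singly. The helicase Ddx10 (0.45) and the early subunit Utp15 (0.46) were also among the 5 smallest values of the set over all cells.

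For the 60S subunit, the PeBoW complex joins Pes1, Bop1 and Wdr12, of which the last 2 were measured. Wdr12 was at 16.9 CPM in NTT and 43.7 CPM in RTT over all cells (1.37, 1.21 to 1.55), and Bop1 at 23.2 and 37.8 CPM (0.71, 0.56 to 0.86). Among the 3 classes the gap between these partners was widest in dendritic cells, where Wdr12 had 1.50 (0.95 to 2.08) and Bop1 0.25 (-0.22 to 0.73). Of the other 60S factors, 9 of 12 were measured, with a median of 0.97 over all cells and 0.68 in macrophages. Rrs1, which brings the 5S RNA particle into the 60S precursor, had the largest ratio of the whole set, from 14.2 to 42.0 CPM (1.57, 1.39 to 1.76). Nop16 followed with 26.4 and 76.9 CPM (1.54, 1.41 to 1.68), and Ppan with 13.2 and 34.2 CPM (1.37, 1.18 to 1.57). Gnl3, the nucleolar GTPase nucleostemin, had 35.9 and 86.3 CPM (1.27, 1.15 to 1.38). In macrophages Nop16 (1.09, 0.89 to 1.29), Nhp2 (1.01, 0.90 to 1.12) and Rrs1 (1.00, 0.74 to 1.27) were the 3 genes past 2-fold. Ebna1bp2, a 60S assembly factor, had the lowest value of the 60S group over all cells (0.54, 0.45 to 0.63).

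The last group makes the precursor RNA or shapes the nucleolus. Npm1 (nucleophosmin) and Ncl (nucleolin), abundant nucleolar proteins that bind RNA and histones, held 44.6% of the set's UMIs in NTT and 43.0% in RTT. Npm1 stood at 706 CPM in NTT and 1206 CPM in RTT over all cells (0.77, 0.74 to 0.80) and Ncl at 420 and 803 CPM (0.94, 0.90 to 0.97). Npm1 has near-identical pseudogene copies, and how shared reads were counted can alter its level. Nolc1, a snoRNP chaperone, had 47.3 and 90.6 CPM (0.94, 0.83 to 1.04), and the helicase Ddx21 85.5 and 150 CPM (0.81, 0.74 to 0.89). Polr1a, the largest subunit of RNA polymerase I, did not share this difference, with 15.6 CPM in NTT and 14.2 CPM in RTT (-0.13, -0.33 to 0.07). The values of Polr1a were -0.10 in monocytes, -0.18 in macrophages and 0.31 in dendritic cells, each with an interval that includes 0. Polr1b, the second largest subunit, had 3.97 and 7.36 CPM over all cells (0.89, 0.53 to 1.26) but rested on 78 and 329 UMIs, and its intervals included 0 in all 3 classes. Mybbp1a, a nucleolar protein tied to precursor RNA processing, had 0.67 (0.56 to 0.77) over all cells and 0.12 (-0.03 to 0.27) in macrophages.

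Single populations with at least 50 cells in each library gave 304 pairs of values (38 genes in 8 populations). Of these, 279 were higher in RTT, 174 had an interval above 0 and 1 had an interval below 0. In 3 pairs, all in DC3, a library had 0 UMIs. Of the 38 genes, 23 were higher in RTT in all 8 populations. Ncl, Npm1, Nop58, Nop10 and Nhp2 had an interval above 0 in each of the 8. No share over all genes is given for these counts over populations, so they do not show that such agreement is particular to the set.

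**Figure D2:**
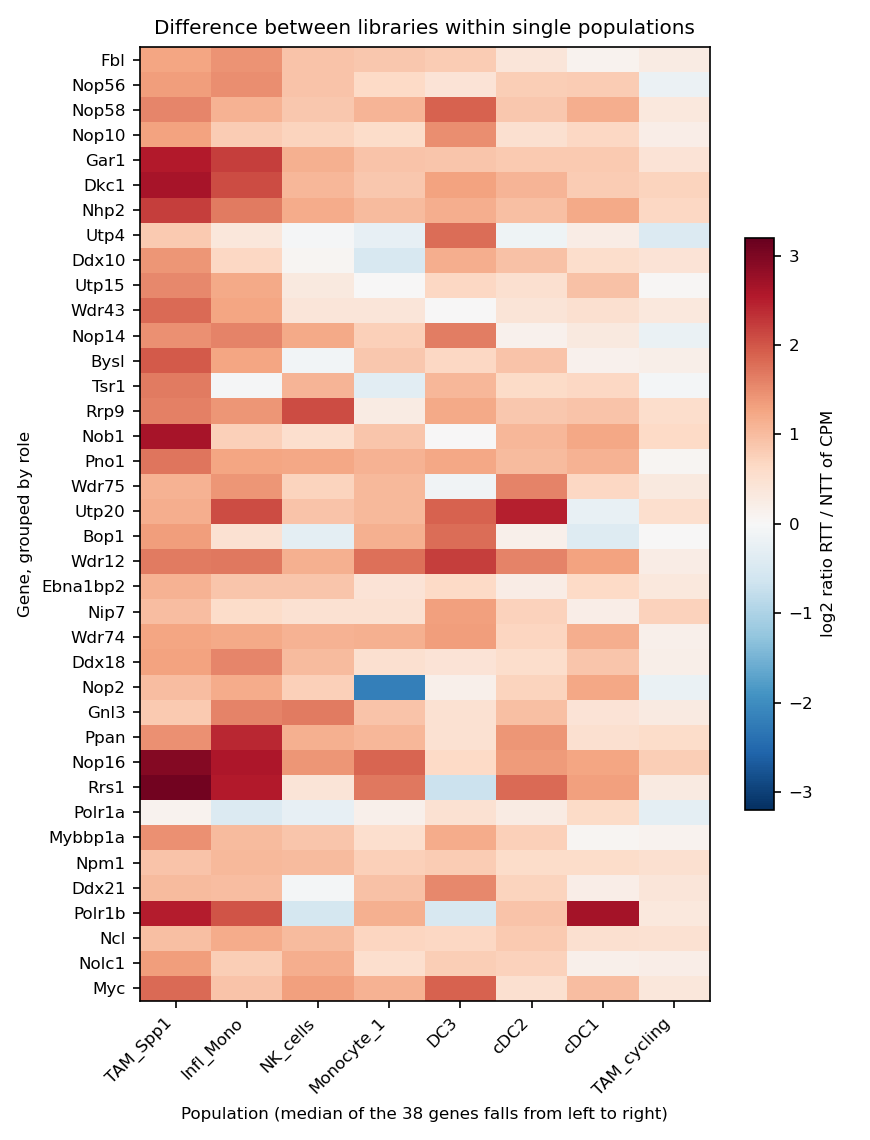
Log2 ratio of RTT over NTT (colour, from CPM) for the 38 genes (rows, grouped by role) in the 8 populations with at least 50 cells in both libraries (columns, with the median falling from left to right). The medians run from 1.44 in TAM_Spp1 to 0.30 in TAM_cycling, and the blue Nop2 cell in Monocyte_1 rests on 1 RTT UMI.

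The difference was largest in TAM_Spp1, macrophages named for osteopontin (193 NTT and 719 RTT cells). There the sum was 1895 CPM in NTT and 4370 CPM in RTT, the median log2 ratio was 1.44, and 31 of 38 genes were 2-fold or more higher (13.7% of genes with any UMI). Rrs1 went from 4 to 144 UMIs (3.09, 1.70 to 4.98), Nop16 from 10 to 326 UMIs (2.94, 2.05 to 4.02), and Dkc1 from 9.72 to 60.8 CPM (2.64, 1.74 to 3.72). The 6 macrophage markers also differed in TAM_Spp1, with a sum of 7565 CPM in NTT and 18423 CPM in RTT, and 5 of the 6 had an interval above 0. The 4 measured monocyte markers went the other way, from 6711 CPM in NTT to 2288 CPM in RTT, all 4 with an interval below 0. In NTT their sum in TAM_Spp1 was above that of Monocyte_1 (5279 CPM), so the cells under this name differed between the libraries in identity markers as well. The part of these markers in the difference was not tested. The 27 cell cycle genes in TAM_Spp1 stood at 413 and 324 CPM.

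In Infl_Mono, the inflammatory monocytes, the sum was 1273 CPM in NTT and 2795 CPM in RTT, with a median of 1.24 and 26 genes past 2-fold (14.9% of genes with any UMI). The macrophage markers in Infl_Mono summed to 7167 CPM in NTT and 28533 CPM in RTT, C1qa alone to 1367 and 6375 CPM, and the monocyte markers to 11320 and 3714 CPM. Whether macrophage RNA or cells took part in the Infl_Mono values was not tested. Monocyte_1 did not share the rise of the macrophage markers, which were there at 15701 CPM in NTT and 15094 CPM in RTT. Its monocyte markers had a lower sum in RTT, with 5279 CPM in NTT and 3503 CPM in RTT. Of these 4 markers, 3 were higher in RTT and 1 was lower. Their part in the Monocyte_1 values was not tested. The 38 genes in Monocyte_1 were at 1932 and 3240 CPM, with a median of 0.86 and 13 genes past 2-fold upward (8.43% of genes with any UMI). Nop2, an RNA methyltransferase of the 60S pathway, lay past 2-fold downward in Monocyte_1 (10.8% of genes with any UMI) with 47 and 1 UMIs (-2.19, -7.52 to 0.36).

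Among dendritic cells, cDC2 went from 2641 CPM in NTT to 4258 CPM in RTT (median 0.77), cDC1 from 3688 to 5595 CPM (median 0.66) and DC3 from 1628 to 2981 CPM (median 0.86). The counts past 2-fold were 9 in cDC2 (10.7% of genes with any UMI), 10 in cDC1 (10.0%) and 18 in DC3 (15.6%). Cell cycle genes were higher in RTT in all 3, from 368 to 1281 CPM in cDC2, from 1552 to 3353 CPM in cDC1 and from 325 to 872 CPM in DC3. With cells that carried Mki67 or Top2a left out, the 38 genes in dendritic cells still stood at 2550 CPM in NTT and 4083 CPM in RTT, with a median of 0.84 and all 38 higher. The cell cycle genes in the remaining dendritic cells were at 298 and 337 CPM. Markers of other cells differed too. The macrophage markers in DC3 summed to 672 CPM in NTT and 4206 CPM in RTT, 6.26-fold, with all 6 intervals above 0. In cDC2 they were at 880 and 1596 CPM, again with all 6 intervals above 0, and in cDC1 at 788 and 935 CPM with 1 of 6. The monocyte markers had lower sums in RTT, from 1406 to 152 CPM in DC3, from 4939 to 721 CPM in cDC2 and from 3204 to 1075 CPM in cDC1. All 4 of these markers were lower in cDC2. In DC3, 2 were lower and 1 was higher, and in cDC1, 3 were lower and 1 was higher. The higher marker had an interval above 0 in both. The part of either marker list in these values was not tested.

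Cells under the NK_cells label had the highest summed levels of any population, 5410 CPM in NTT (178 cells) and 10269 CPM in RTT (51 cells). This rank held for the summed UMIs and not for the median cell. The set took 0.361% of the UMIs of the median NK_cells cell in NTT, below the 0.388% of TAM_cycling, and 0.442% in RTT, below cDC1 (0.517%), TAM_cycling (0.500%) and Ctsk_Macro (0.479%). The median ratio was 0.91 and 17 genes were past 2-fold (9.55% of genes with any UMI). The summed level and the difference rested on few cells, since the 10 cells with the most UMIs of the set held 84.3% of its UMIs in the RTT library and 58.6% of all RTT UMIs of the population. The same number of cells held 30.7% in NTT. When each cell counted equally the median ratio was 0.27. Without cells that carried Mki67 or Top2a it was 0.36, with 4544 CPM in 103 NTT cells and 5936 CPM in 32 RTT cells. The macrophage markers in NK_cells were at 314 CPM in NTT and 2791 CPM in RTT, the neutrophil markers at 166 and 684 CPM, and the NK and T cell markers at 5179 and 3059 CPM. In NTT, 6872 of the 7090 UMIs of the NK and T cell markers lay in NK_cells. The T cell genes Cd3e and Cd8a had 1133 and 1088 UMIs over all NTT cells, so most of these lay there. The label therefore cannot be read as NK cells alone. The 12 dissociation and stress genes were higher in RTT for 10, with a median of 1.06. Their part in the NK_cells values was not tested.

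**Figure D3:**
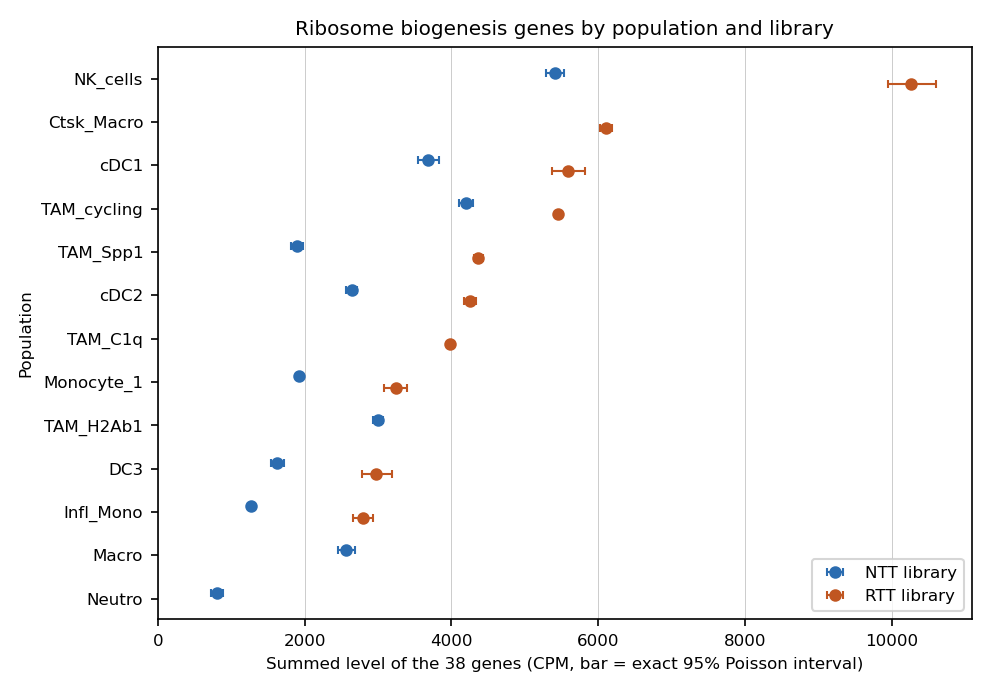
Summed level of the 38 genes in CPM (x axis) for each population with at least 50 cells in a library (y axis), with bars for the exact 95% Poisson interval. In each of the 8 populations with a point for both libraries the RTT point (orange) lies to the right of the NTT point (blue), and NK_cells lie furthest right in both by summed UMIs.

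Levels also ordered the populations within each library. In NTT, neutrophils were lowest with 803 CPM (723 to 890), then Infl_Mono with 1273 CPM, DC3 with 1628 CPM, TAM_Spp1 with 1895 CPM and Monocyte_1 with 1932 CPM. The last 2 do not differ beyond their counting intervals (1812 to 1981 and 1895 to 1969). Macro (2569 CPM) and cDC2 (2641 CPM) overlapped likewise, and above them came TAM_H2Ab1 with 3003 CPM, cDC1 with 3688 CPM, TAM_cycling with 4199 CPM and NK_cells with 5410 CPM. In RTT, Infl_Mono (2795 CPM) and DC3 (2981 CPM) overlapped at the low end, followed by Monocyte_1 with 3240 CPM, which overlapped DC3, then TAM_C1q with 3984 CPM, and cDC2 with 4258 CPM and TAM_Spp1 with 4370 CPM, which overlapped. The RTT macrophages named for cathepsin K, Ctsk_Macro, stood at 6109 CPM, above TAM_cycling with 5453 CPM and cDC1 with 5595 CPM, which overlapped. The lowest RTT population, Infl_Mono, was above all NTT populations but TAM_H2Ab1, cDC1, TAM_cycling and NK_cells, with overlapping intervals for Macro and cDC2. By single genes, NK_cells held the highest level for 22 of the 38 genes in NTT and for 29 in RTT, and NTT neutrophils the lowest for 20. Neutrophils had the fewest UMIs of these NTT populations (453155), and populations with few UMIs can take end ranks for many genes. No share over all genes is given for these ranks. The NK_cells values in this order are the summed ones, which in RTT rest mostly on 10 of 51 cells.

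To compare cells at equal depth, 2000 UMIs were drawn from each cell that had as many, and those of the 38 genes were counted. This left out 107 NTT and 63 RTT cells, among them 66 and 3 monocytes, 6 and 26 macrophages, and 16 and 16 dendritic cells. The median cell then held 3 in NTT and 5 in RTT monocytes, 5 and 8 in macrophages, and 4 and 8 in dendritic cells. In unthinned cells the median share of a cell's UMIs was 0.262% in NTT and 0.413% in RTT macrophages. The quartiles of the thinned macrophages were 3 and 7 in NTT and 6 and 11 in RTT, so that the distributions overlapped widely. With the 1% of cells with the largest share of these UMIs left out, the median log2 ratio in macrophages was 0.50.

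Growth and division were set apart next, with the cycling macrophages, TAM_cycling, against all other macrophages of the same library. In NTT the sum was 4199 CPM in TAM_cycling (103 cells) and 2631 CPM in the others (479 cells). The median log2 ratio of cycling over other cells was 0.63, with 35 of 38 genes higher and 5 past 2-fold (11.5% of genes with any UMI). In RTT the sum was 5453 CPM in TAM_cycling (947 cells) and 4348 CPM in the others (3062 cells). The median was 0.13, with 32 genes higher and 0 past 2-fold (8.13% of genes with any UMI). The summed ratio was 0.67 (0.63 to 0.72) in NTT and 0.33 (0.31 to 0.34) in RTT, while that of the cell cycle genes was 3.10 in NTT and 3.40 in RTT. The scaffold pair Nop56 and Nop58 led in both libraries, with 1.49 and 1.35 in NTT and 0.74 and 0.64 in RTT. Myc had 0.18 (-0.44 to 0.77) in NTT and 0.15 (-0.06 to 0.35) in RTT, both with an interval that includes 0. In NTT it rested on 37 UMIs in TAM_cycling and 70 in the others, too few to show a difference or its absence. The cycling population was defined by clustering these same cells, so its values are descriptions.

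Between libraries, TAM_cycling differed least of the 8 populations, with a median of 0.30 and 0 of 38 genes past 2-fold (6.36% of genes with any UMI). Nop56, at 174 CPM in NTT and 152 CPM in RTT, had there the 1 interval of all 304 that lay below 0 (-0.20, -0.37 to -0.03). Nop16 (0.78), Nip7 (0.73) and Dkc1 (0.71) were the highest. The dissociation and stress genes had a median of 0.79 in TAM_cycling, 9 of 12 with an interval above 0, and their part was not tested. Macrophages outside TAM_cycling that carried neither Mki67 nor Top2a differed more. In these 413 NTT and 2649 RTT cells the sum was 2561 CPM in NTT and 4178 CPM in RTT, the median was 0.70 and 37 of 38 genes were higher. Their cell cycle genes were lower in RTT, at 409 CPM in NTT and 313 CPM in RTT. These macrophages were under partly different population names in NTT and RTT, and the part of this was not tested.

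**Figure D4:**
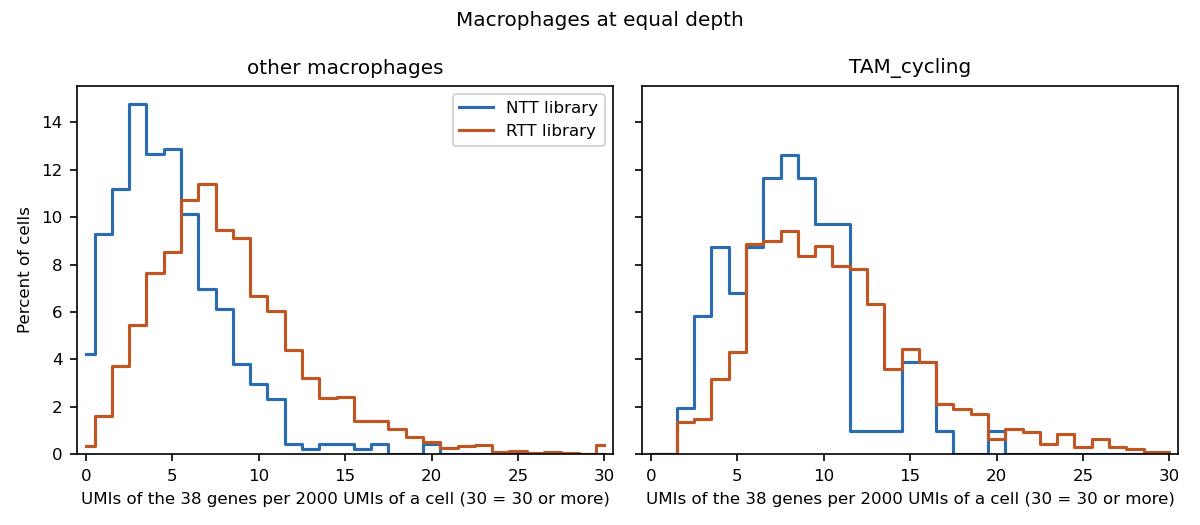
Percent of cells (y axis) by the number of UMIs of the 38 genes among 2000 UMIs drawn from each cell with at least that many (x axis; 6 NTT and 26 RTT cells of the other macrophages left out), for macrophages outside TAM_cycling and for TAM_cycling, with NTT in blue and RTT in orange. The medians are 4 and 8 UMIs in the other macrophages and 8 and 10 UMIs in TAM_cycling, so the RTT macrophages outside TAM_cycling have the same median as TAM_cycling in NTT. The other macrophages are under partly different population names in NTT and RTT.

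Myc itself was scarce, with 292 UMIs in NTT and 1084 in RTT. Over all cells it was at 14.9 CPM in NTT and 24.2 CPM in RTT (log2 ratio 0.71, 0.52 to 0.90). The ratio was 0.84 in monocytes (0.08 to 1.54), 0.39 in macrophages (0.10 to 0.69) and 0.99 in dendritic cells (0.41 to 1.59). Myc was higher in RTT in all 8 populations, with an interval above 0 in 4. The highest summed levels were in NK_cells, 43.0 CPM in NTT and 106 CPM in RTT. In NTT, DC3 and neutrophils had 0 Myc UMIs, which allows up to 3.80 CPM and 6.62 CPM (3 counts, counting error only). TAM_Spp1 had 7 and 104 Myc UMIs, which is 6.81 and 23.9 CPM (1.81, 0.72 to 3.16). Over the 21 points given by population and library, Pearson's r between Myc, as log2(CPM + 1), and the log2 sum of the other genes was 0.86. It was 0.83 over the 11 NTT points and 0.85 over the 10 RTT points. The NTT points include the populations with 0 Myc UMIs, and the RTT points include NK_cells, whose UMIs of the set rest mostly on 10 of 51 cells. Between the cell cycle genes and the set r was 0.77 over the 21 points, 0.86 in NTT and 0.73 in RTT. The points share libraries and scaling, so these are descriptions.

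**Figure D5:**
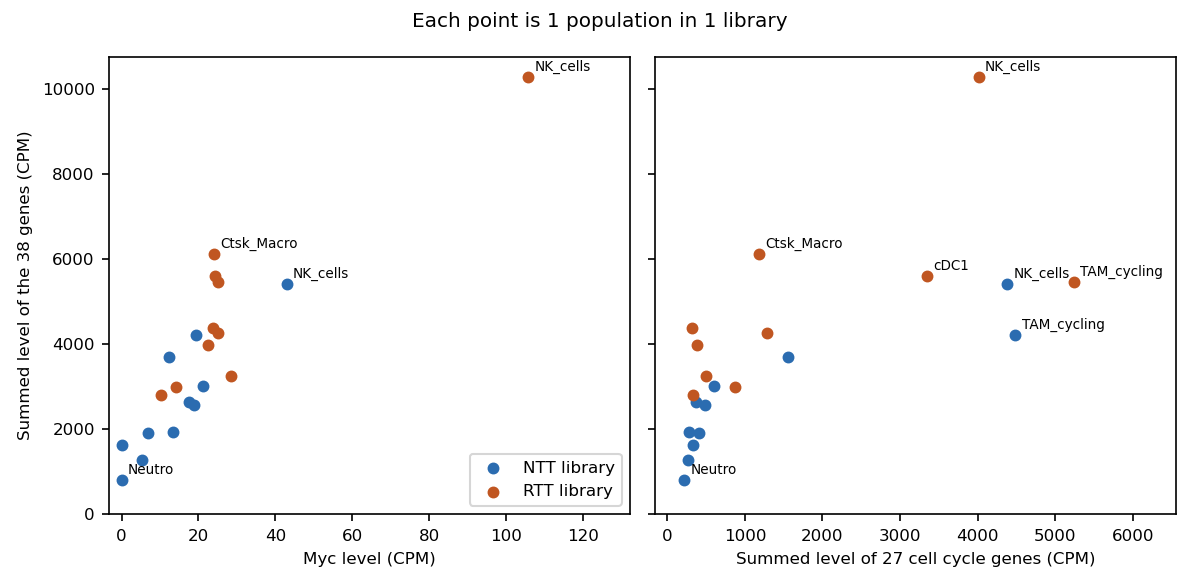
Summed level of the 38 genes (y axis, CPM) against the level of Myc (left, CPM) and the summed level of 27 cell cycle genes (right, CPM), with 1 point for each population in NTT (blue) or RTT (orange). NK_cells lie at the top right of the Myc plot, with 106 CPM of Myc in RTT, and in the right plot many RTT points lie above NTT points of like cell cycle level.

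Other genes of the pathway and of the Myc network were taken from lists made by function. Of 106 further genes of ribosome precursor processing, 101 were in the matrix. They differed in the same direction by less, with medians of 0.51 over all cells, 0.39 in monocytes, 0.31 in macrophages and 0.43 in dendritic cells. In macrophages 79 of the 101 were higher in RTT, 56 with an interval above 0 and 8 with an interval below 0. Imp3 (0.89) and Wdr46 (0.87), both of the small subunit processome, and Nol9 (0.89), a kinase of the 60S pathway, were highest, and Taf1b (-0.41), an RNA polymerase I initiation factor, Dhx33 (-0.51), a helicase, and Urb2 (-0.72) were lowest.

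Known Myc targets outside ribosome production, 26 in all, had medians of 0.90 over all cells, 0.85 in monocytes, 0.55 in macrophages and 0.75 in dendritic cells. In macrophages Shmt2, a mitochondrial enzyme of folate metabolism, had 1.32 (1.05 to 1.61), the spermidine synthase Srm 1.13 (0.96 to 1.31) and the transferrin receptor Tfrc 1.01 (0.73 to 1.31). The targets did not move as a block, for Odc1, the rate-limiting enzyme of polyamine synthesis, was lower in RTT macrophages (101 CPM in NTT and 55.2 CPM in RTT, log2 ratio -0.87), and so was the cyclin Ccnd2 (-1.04, -1.14 to -0.93).

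The 10 measured partners of Myc, which share or compete for its dimer partner Max or a related one, had medians of -0.41 over all cells, where 2 of the 10 were higher in RTT, and of -0.12 in macrophages, where 3 were higher. Mxd1, which pairs with Max and represses Myc target genes, was the most different. It stood at 264 CPM in NTT and 29.1 CPM in RTT over all cells (-3.18, -3.27 to -3.09). Its log2 ratio was -1.93 in monocytes, -2.31 in macrophages and -2.23 in dendritic cells. Mnt, another repressor of this family, was at 21.3 CPM in NTT and 11.5 CPM in RTT macrophages (-0.90, -1.18 to -0.60). Mxd3 and Mxd4, of the same family as Mxd1, went the other way, with 1.36 and 0.83 over all cells and 0.81 and 0.48 in macrophages.

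The promoters were read to see which of the 38 genes carry the E-box bound by Myc. The window ran from 250 bases before to 50 bases after each start in RefSeq (GRCm38.p6, the build of the authors' mm10 reference). It was given for 33 of the 38 genes. Rrs1, Bop1, Myc, Npm1 and Fbl had no entry. The letters CACGTG, which read the same on both strands, occurred in 7 of the 33 genes (21.2%), against 11.6% of the 9982 genes of the matrix with a window. A match is a description and no measure of binding. The stretches around the 7 matches are shown because Myc is known to bind E-boxes of this form, on the strand of the gene, with CACGTG in capitals:
Nop2, chr6:125131811-125131840, plus strand: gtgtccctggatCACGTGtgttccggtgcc
Utp4, chr8:106893643-106893672, plus strand: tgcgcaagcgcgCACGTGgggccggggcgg
Utp20, chr10:88826765-88826789, minus strand: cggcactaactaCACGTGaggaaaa
Pno1, chr11:17211540-17211564, minus strand: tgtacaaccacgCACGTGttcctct
Mybbp1a, chr11:72441355-72441376, plus strand: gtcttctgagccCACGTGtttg
Tsr1, chr11:74898092-74898121, plus strand: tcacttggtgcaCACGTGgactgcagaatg
Wdr43, chr17:71616220-71616249, plus strand: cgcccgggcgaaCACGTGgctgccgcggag

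The match began 60 bases before the start in Nop2 and after it, between 15 and 40 bases, in the other 6 genes. The log2 ratios of these 7 genes over all cells ran from 0.10 in Utp4 to 1.22 in Utp20, with Nop2 at 0.97, and so covered most of the range of the set. Nop16, Wdr12, Ppan and Nhp2, the highest genes with a window, did not hold these letters in it. The 38 genes lay on 17 chromosomes, with at most 6 on a single chromosome.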

How the data were processed

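Per the labels, libraries were made with the 10x Genomics 3′ kit. The submitters' processing notes name Cell Ranger 6.1.1 and mm10. The deposited matrix holds raw UMI counts per gene and cell, not normalised. The authors removed cells with few genes or many mitochondrial or ribosomal reads, kept genes found in each of several experiments, and removed ribosomal protein and mitochondrial genes, so ribosomal proteins are not analysed here and CPM is relative to the deposited genes. They named 16 populations on a batch-corrected map that joined these cells with cells of another melanoma model. Doublet removal is not given in the sources used here, and no doublet caller was run. Matrix sums equalled the deposited totals for all 7815 cells.

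Counts were summed per library and population and scaled to CPM in Python 3.11.15 (numpy 2.4.6, scipy 1.17.1, pandas 2.3.3, matplotlib 3.10.9). Monocytes merged 3 populations, macrophages 6 and dendritic cells 3. Log2 ratios carry exact Clopper-Pearson and levels exact Poisson intervals (95%), both for counting error only. A library with 0 UMIs was set to a floor of 3 UMIs per library for the medians, and no fold is printed for it. A difference was called at 2-fold (log2 ratio of 1). TMM factors (edgeR 4.0.16) and size factors (DESeq2 1.42.0) in R 4.3.3 served as other scalings. The code for the ratios and intervals was tested on simulated counts.

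The genes and lists were chosen with earlier results of these data known. Values are given in full for a fixed panel and, in each class, for members among the 5 largest and 5 smallest ratios with at least 200 UMIs; of other genes, for the 3 at each end of a list in macrophages and the 10 most like the set. Values in single populations outside the panel were chosen after they were seen. Alternatives were other scalings, per-cell means, thinning, minimum counts, and leaving out cycling cells or populations.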

Additional observations from a re-analysis of the deposited data

Results flagged for a closer look

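Nop56 in TAM_cycling drew attention because it lay on the other side of 0 from the other populations. It was lower in RTT there (log2 ratio -0.20), with 331 UMIs in NTT and 1851 in RTT, whereas it was higher in RTT in the other 7 populations, by up to 1.49 in Infl_Mono. The difference between the populations was not tested, since each library stands alone.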

How the results depend on the processing

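No alternative turned a median of the set to the other side of 0, but the counts past 2-fold changed with the setting. No paired analysis was possible because each group had 1 library. Over all cells, the median of 0.92 became 1.09 and the count of 13 genes past 2-fold became 22 with cells thinned to 2000 UMIs (all genes with any UMI under that setting: 11.7%), 1.06 and 23 without cells with Mki67 or Top2a (12.9%), and the count was 22 with the mean of per-cell CPM (12.8%). In monocytes the count of 11 became 3 when only genes with at least 200 UMIs were kept (2.97%). In macrophages the median of 0.50 became 0.72 and the count of 3 became 7 with thinned cells (7.16%), and the count was 1 with DESeq2 size factors (6.37%), 8 with the mean of per-cell CPM (8.23%), 5 without cells with Mki67 or Top2a (7.48%) and 8 without TAM_cycling (8.0%). In dendritic cells the count of 14 became 8 with thinned cells (10.3%) and 6 with at least 200 UMIs (4.83%). In NK_cells the median of 0.91 became 0.27 with the mean of per-cell CPM. The share of the difference that moved with population shares was 27.0% with NTT weights and 33.5% with RTT weights. TMM shifted the ratios by over 0.1 in DC3 (-0.14) and Infl_Mono (-0.12) only, and DESeq2 in DC3 only (-0.16). Among the 80 values of the fixed panel, thinning gave 4 the other sign, the furthest being Polr1b in dendritic cells (-0.42), which had only 10 and 19 UMIs before thinning. Leaving out Npm1 and Ncl, or the 1% of cells with the largest share, was added after the data were seen. Apart from the use of fewer genes, cells or other weights, the cause of these shifts was not tested. Depth limits genes such as Polr1b and the RTT monocytes, DC3 and NK_cells most.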

Other observations

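Outside the set itself, the 10 genes whose log2 CPM followed the sum of the 38 genes most closely over the 21 points of population and library were searched among 8112 genes with at least 500 UMIs. They were Snu13 (r = 0.98), a protein of both snoRNPs and the spliceosome, the messenger RNA binding protein Serbp1 (0.98), the chaperonin subunits Cct7 (0.98) and Cct2 (0.98), Impdh2 (0.97), the rate-limiting enzyme of guanine nucleotide synthesis, the translation elongation genes Eef1d (0.97) and Eef1g (0.97), the histone chaperone Set (0.97), and Eef1e1 (0.97) and Aimp2 (0.96), which belong to the aminoacyl-tRNA synthetase complex. Of these 10, 3 are in the lists of processing genes or Myc targets. Within the set itself r against the other members ran from 0.54 for Utp4, 0.57 for Polr1a and 0.59 for Nop2 to 0.97 for Dkc1 and Nolc1. The points share libraries and scaling.

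The 12 dissociation and stress genes had medians of -0.30 over all cells, -0.25 in monocytes, 0.23 in macrophages and 0.31 in dendritic cells. Over all cells and in monocytes 4 of the 12 were higher in RTT and 8 were lower. In macrophages 7 were higher and 5 lower, and in dendritic cells 8 were higher and 4 lower. All the higher ones in these last classes had an interval above 0. Their part in the values of the set was not tested. In single populations they were higher in RTT in NK_cells (median 1.06, 10 of 12 higher, where the set had 0.91) and in TAM_cycling (median 0.79, 9 of 12 with an interval above 0, where the set had 0.30). Hspa1b, a heat shock protein, was lower in RTT over all cells and in the 3 classes, in that order with log2 ratios of -2.28, -1.95, -1.86 and -1.16. The 27 cell cycle genes had medians of 1.02 over all cells, 0.80 in monocytes, 0.19 in macrophages and 1.70 in dendritic cells.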
